A study of Mus musculus with 10 samples.

Results

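The 32 genes described here mark the endothelial cells of pancreatic islets or direct the growth of their vessels. They were chosen by name from knowledge of the tissue: 24 are surface proteins, secreted products, junction proteins and transcription factors typical of blood vessel endothelium, and the other 8 are VEGF and angiopoietin ligands, the neuropilin co-receptors and Hif1a. All 32 were found among the 35214 genes of the expression table, and 30 of them have at least 1 of the 167895 splicing events. Together they hold 509 events. Sox18 and Cldn5 have none.

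RNA was sequenced from pancreatic islets of 5 NZO mice (NZO/HiBomDife, obese and prone to diabetes) and 5 B6-ob/ob mice (C57BL/6J with the ob mutation of the leptin gene, obese but free of diabetes). All animals were male, received a diet without carbohydrates up to an age of 18 weeks, and then a diet with carbohydrates for 2 days. The sample labels give pancreas as the source, whereas the methods of the study describe isolated islets. The strains differ in their whole genetic background as well as in the leptin gene, so that no difference between them can be assigned to 1 locus, and islets are a mixture in which the endothelium is a minor cell type. The tables used hold 1 mean level per gene over all 10 libraries and 1 pooled splicing value per strain. The spread between mice, the depth per library and the reads behind each splicing value are therefore unknown, and no difference below was tested.

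Islets are pervaded by a dense network of fenestrated capillaries. Endocrine cells secrete VEGF-A, which binds the receptor tyrosine kinases Flt1 and Kdr on the endothelium, and the neuropilins serve as co-receptors. A second system consists of the angiopoietins and their receptor Tek, with Tie1 as its partner and the phosphatase Ptprb as a brake. Several of these genes give more than 1 protein through alternative splicing. In Vegfa, exons 6 and 7 encode stretches that bind heparin and hold the growth factor in the matrix, so that forms without them diffuse more freely. In Nrp2, short inserts lie between the outer part of the protein and its membrane-spanning end.

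Splicing was given as percent spliced in (PSI), the share of transcripts that include a segment of the gene, written as a fraction from 0 to 1. Segments are core exons, alternative acceptors or donors (segments added at the start or end of an exon), retained introns, alternative first or last exons, and tandem starts or ends, which are neighbouring stretches of 1 first or last exon. For tandem starts and ends, PSI is instead the share of transcripts assigned to start or end at that segment. A low value there does not mean that the bases of the segment are missing. A difference is the PSI of NZO minus the PSI of B6-ob/ob islets, and an absolute difference over 0.1 is called past the limit. The sequences below are those of the core exon, acceptor and donor segments past the limit, all of them coding, and of some alternative coding segments that differ less. Of the tandem starts and ends past the limit, only the first bases of the Vegfa starts are printed, and those with coding bases in Vwf and Sox17 are left out. The segment is in capitals, with 15 bases of the joined mRNA on each side in lower case, on the strand of the gene and in GENCODE transcripts of GRCm38 (the build also called mm10).

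The Vegfa segments are exon 6 (chr17:46022277-46022348, minus strand, 72 nt) and exon 7 (chr17:46020991-46021122, minus strand, 132 nt). The exon 6 sequence is dense in codons for basic residues. In both lines the upstream bases are the same end of exon 5, and the downstream bases the same start of exon 8.
Vegfa exon 6: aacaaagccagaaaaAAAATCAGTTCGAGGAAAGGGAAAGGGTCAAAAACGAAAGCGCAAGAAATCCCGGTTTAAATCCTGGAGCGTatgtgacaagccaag
Vegfa exon 7: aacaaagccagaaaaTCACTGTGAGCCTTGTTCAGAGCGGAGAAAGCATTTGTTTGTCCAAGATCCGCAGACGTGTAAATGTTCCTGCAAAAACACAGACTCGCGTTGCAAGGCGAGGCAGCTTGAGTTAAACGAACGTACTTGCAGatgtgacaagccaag

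The Nrp2 segments are a donor extension (chr1:62786302-62786316, plus strand, 15 nt) and a core exon (chr1:62812534-62812584, plus strand, 51 nt). Both follow the same bases of the preceding exon. In the annotation the donor extension occurs with either of the alternative C-terminal ends of the protein and the core exon with 1 of them.
Nrp2 donor extension: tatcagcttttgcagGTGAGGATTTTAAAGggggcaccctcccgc
Nrp2 core exon: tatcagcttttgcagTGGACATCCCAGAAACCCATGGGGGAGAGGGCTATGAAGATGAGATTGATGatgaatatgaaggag

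Robo4, a guidance receptor of the endothelium, has an acceptor segment (chr9:37410679-37410699, plus strand, 21 nt). Adgrf5, an adhesion G protein-coupled receptor, has a donor segment (chr17:43404044-43404097, plus strand, 54 nt). These segments differ past the limit.
Robo4 acceptor segment: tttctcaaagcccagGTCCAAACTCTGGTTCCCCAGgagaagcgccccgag
Adgrf5 donor segment: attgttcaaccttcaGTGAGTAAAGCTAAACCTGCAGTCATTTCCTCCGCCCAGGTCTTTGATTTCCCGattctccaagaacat

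Segments that differed by less than the limit are shown for comparison in 3 genes: the Pecam1 exon of the cytoplasmic tail (chr11:106671742-106671798, minus strand, 57 nt), the Erg coding exon (chr16:95377301-95377372, minus strand, 72 nt) and the Hif1a acceptor segment (chr12:73941688-73941729, plus strand, 42 nt). The length of every segment printed here is a multiple of 3, so that its inclusion leaves the reading frame intact.
Pecam1 tail exon: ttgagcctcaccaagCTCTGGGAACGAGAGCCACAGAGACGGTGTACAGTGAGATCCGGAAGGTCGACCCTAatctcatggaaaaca
Erg coding exon: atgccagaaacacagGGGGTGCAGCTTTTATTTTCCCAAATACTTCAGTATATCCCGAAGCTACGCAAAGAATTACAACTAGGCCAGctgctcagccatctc
Hif1a acceptor segment: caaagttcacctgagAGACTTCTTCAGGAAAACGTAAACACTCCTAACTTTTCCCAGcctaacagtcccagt

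The endothelial genes were well represented in islet RNA. Their mean normalized counts, scaled to counts per kb of the longest annotated transcript so that genes can be set against each other, had a median of 359, against a median of 45.2 over all 22461 detected genes of known length. The mean normalized count was 100 or more in 28 of the 32 genes and 1000 or more in 18. Since the values are means over both strains, they show the order of the genes in islets and not a difference between NZO and B6-ob/ob mice. In bulk RNA, fewer cells of a type and less RNA per cell cannot be told apart.

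Plvap, which forms the diaphragms of capillary fenestrae, had the highest level of the 32 genes with 3864 counts per kb, above 98.4% of the detected genes, although Vegfa stood above it per kb of coding length. Esm1, a secreted proteoglycan of endothelial tip cells, reached 1204 counts per kb. Both exceeded the VEGF receptors, with 882 counts per kb for Kdr, the main signalling receptor for VEGF-A, and 742 for Flt1, a receptor that also acts as a decoy. Eng, a co-receptor for TGF-beta and BMP ligands, had 863 counts per kb. Flt4, the receptor for VEGF-C, stood far lower with 87.2 counts per kb.

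Among proteins of the endothelial surface and junctions, Esam had 725, Pecam1 683, Podxl 660 and Emcn 437 counts per kb. Cdh5, the cadherin of endothelial junctions, had 331 counts per kb. Cldn5, the claudin that seals the vessels of the brain, had only 8.26 counts per kb and a mean normalized count of 11.7, the lowest count of the 32 genes. The adhesion receptors Adgrl4 and Adgrf5 had 387 and 270 counts per kb, and Robo4 had 174.

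In the angiopoietin system, Tie1 had 321, Ptprb 288 and Tek 140 counts per kb. Angpt2, the ligand released by activated endothelium, had 91.7 counts per kb, a lower level than Tek by this length but a higher one per kb of coding length. Angpt1, made by pericytes and other mural cells, had 7.28 counts per kb, the lowest level of the 32 genes except per kb of coding length, where Vwf and Cldn5 stood lower. Vwf, the clotting factor carrier stored in many endothelia, had 17.6 counts per kb and Nos3, the endothelial nitric oxide synthase, 68.1. The secreted protein Egfl7 had 565 counts per kb.

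Among transcription factors, Sox18 had 470 counts per kb, whereas Erg had 80.6 and Sox17 27.5. Hif1a, the oxygen-regulated subunit of the hypoxia factor, had 414 counts per kb. Vegfa had the highest mean normalized count of the 32 genes (8105) and, with 2349 counts per kb, the second highest level after Plvap. Vegfb had 452 and Vegfc, the lymphatic growth factor, 34.1 counts per kb. Of the neuropilins, Nrp1 had 423 and Nrp2 41.3 counts per kb.

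**Figure D1:**
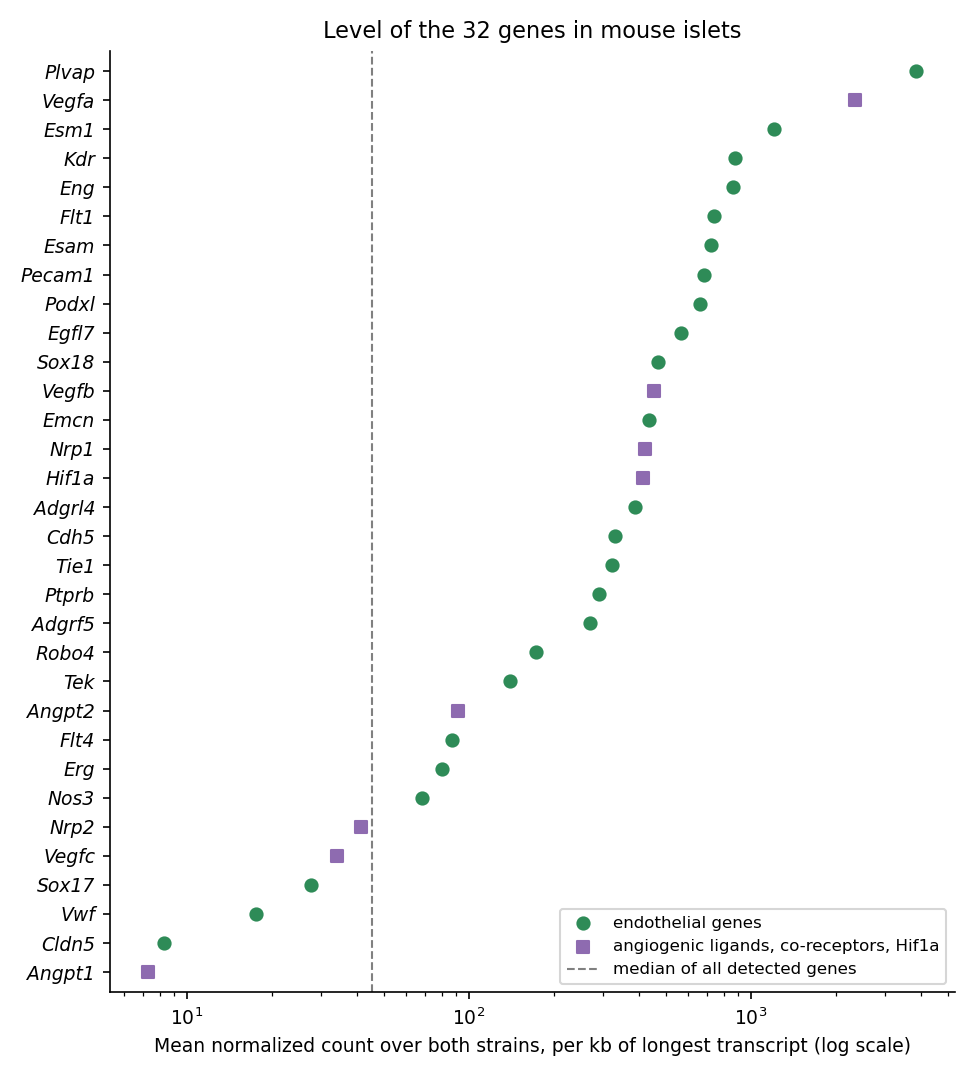
Mean normalized count per kb of the longest transcript (horizontal log axis) for each of the 32 genes, ordered by level. Points are single means over the 10 libraries of both strains, circles mark endothelial genes, squares mark the ligands, co-receptors and Hif1a, and the dashed line is the median of all detected genes (45.2). Plvap (3864) and Vegfa (2349) stand at the top, and Cldn5 (8.26) and Angpt1 (7.28) at the bottom.

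Markers of other cells place these levels. The summed level of the 24 endothelial genes was 13294 counts per kb, against 1.11e+07 for 10 beta cell markers, 3600 for 7 pericyte and stellate markers, 905 for 6 acinar markers and 417 for 6 leukocyte markers. Such sums grow with the number of genes and lean on single genes such as Plvap (3864). The medians per gene, in the same order, were 359, 7529, 163, 107 and 48.7 counts per kb. Rgs5, a pericyte gene, had 2470 counts per kb. The red blood cell genes Hba-a1 and Hbb-bs had 2548 and 3174 counts per kb. Some of the 32 genes are also made outside the blood endothelium. Vwf is made by megakaryocytes, whose genes Pf4, Ppbp and Itga2b had mean normalized counts of 1.54, 1.29 and 27.9. Flt4 also marks lymphatic vessels, whose markers Prox1, Lyve1 and Pdpn had mean normalized counts of 1527, 383 and 8.27, and Prox1 is made by endocrine cells too. As there is no level per strain among the values used, a difference in the share of these cells between NZO and B6-ob/ob islets was not tested.

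Most exons of the 32 genes had similar PSI values in NZO and B6-ob/ob islets. Of the 509 segments, 19 (3.73%) in 9 genes differed past the limit, whereas 8.73% of all segments in the table did. Of the 19, 7 were higher and 12 lower in NZO islets, against 4.32% of all segments higher and 4.41% lower. The share of genes with at least 1 segment past the limit was 30% (9 of 30), against 44.0% of the 13698 genes with a segment. The median absolute difference was 0.00359 for the 32 genes and 0.00911 for the whole table.

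The genes with a segment past the limit were Vegfa, Nrp2, Robo4, Adgrf5, Tek, Tie1, Vwf, Erg and Sox17. Tandem starts and ends made up 15 of the 19 segments. As the PSI values of adjoining tandem segments are shares of 1 choice (their sums in the 31 such groups were 0.998 to 1.13 in NZO islets, compared with 0.999 to 1.12 in B6-ob/ob islets), a higher share at 1 segment goes with a lower share at its neighbour. Counted by choice, the 19 segments are 11. None of the 19 overlaps an exon of another annotated gene.

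**Figure D2:**
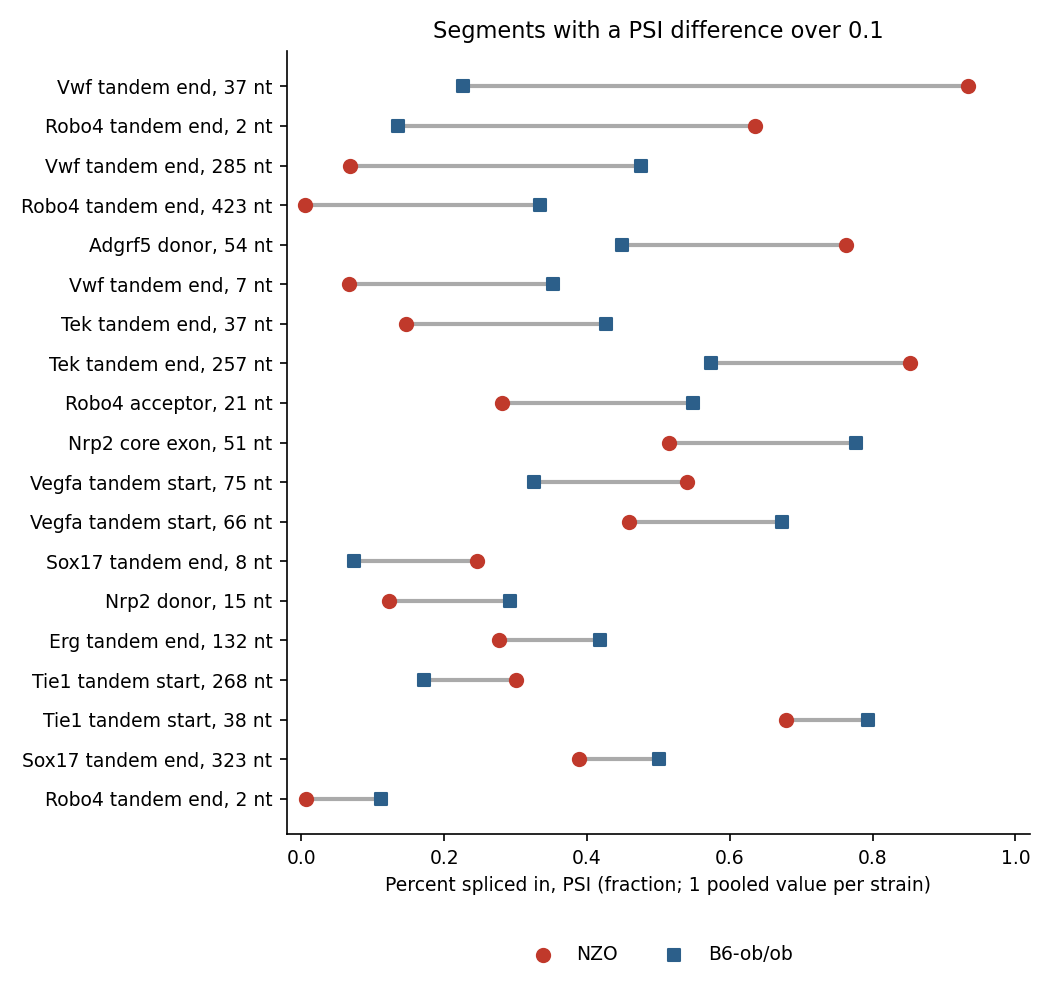
PSI (horizontal axis, as a fraction) in NZO islets (red circles) and B6-ob/ob islets (blue squares) for the 19 segments of the 32 genes that differ by over 0.1, ordered by the size of the difference. For tandem starts and ends it is the share of transcripts assigned to start or end at the segment. Each point is 1 pooled value per strain without an error. The largest gap is at a tandem end of Vwf (0.934 in NZO, 0.226 in B6-ob/ob), and 15 of the 19 segments are tandem starts or ends.

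Among the ligands, Vegfa differed in its annotated starts but hardly in the exons that set matrix binding. Exon 6 had a PSI of 0.0207 in NZO islets against 0.0186 in B6-ob/ob islets, so that it was left out of nearly all Vegfa transcripts of both strains. Exon 7 had a PSI of 0.582 in NZO islets, compared with 0.573 in B6-ob/ob islets. The form that holds exon 7 but not exon 6 has intermediate matrix binding. The difference was 0.0087 for exon 7 and 0.0021 for exon 6. The 6 tandem ends of Vegfa, which set the length of its untranslated tail, differed by at most 0.042.

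At the 5′ end of Vegfa, the tandem start of 75 nt (chr17:46031816-46031890, minus strand) had a PSI of 0.540 in NZO islets against 0.326 in B6-ob/ob islets, a difference of 0.21. The tandem start of 66 nt downstream of it (chr17:46031291-46031356) had a PSI of 0.460 in NZO islets, compared with 0.674 in B6-ob/ob islets. Hence the upstream segment had the higher PSI of the pair in NZO islets, and the downstream segment in B6-ob/ob islets. Both coincide with the first base of a coding sequence: all 3 annotated transcripts that begin at the first of these positions, and 2 of the 3 that begin at the second, have a coding first base. Annotated transcripts of this kind hold no 5′ untranslated region. Whether islet transcripts begin at these positions, and whether the strains differ in this, was not tested. The first 30 bases of the segments are shown with the opening codon in capitals. The upstream codon is CTG, known as an alternative start of translation in Vegfa, and the downstream one is the classical ATG.
Vegfa upstream start: CTGacggacagacagacagacaccgccccc
Vegfa downstream start: ATGaactttctgctctcttgggtgcactgg

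The outermost segment of the first exon, 479 nt long and upstream of both, had a PSI of 0.00062 in NZO islets against 0.00061 in B6-ob/ob islets.

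For Vegfb, the acceptor segment of 101 nt (chr19:6985496-6985596, minus strand), which changes the reading frame and with it the C-terminal end, had a PSI of 0.542 in NZO islets, compared with 0.552 in B6-ob/ob islets. Both values lie near the middle of the scale, and they differed by 0.010. In Vegfc no segment differed past the limit, and the 4 core exons had PSI values of 0.902 to 0.934 in NZO islets against 0.938 to 0.970 in B6-ob/ob islets. The 2 Angpt1 exons with values had 0.893 and 0.880 in NZO against 0.879 and 0.878 in B6-ob/ob islets. The mean normalized counts of Vegfc and Angpt1 were low, at 83.6 and 31.0. All 7 Angpt2 exons were included to at least 0.970 in NZO islets, compared with 0.975 in B6-ob/ob islets.

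Nrp2, the co-receptor for VEGF-C and class 3 semaphorins, differed at both inserts printed above. The 51 nt exon had a PSI of 0.515 in NZO islets against 0.777 in B6-ob/ob islets, a difference of -0.26 and the only core exon of the 391 in these genes past the limit (0.256%, against 1.48% of all core exons). The 15 nt donor extension had a PSI of 0.123 in NZO islets, compared with 0.292 in B6-ob/ob islets, a difference of -0.17. Both inserts were used less in NZO islets. The median over all 15 core exons of Nrp2 was 0.924 in NZO islets against 0.935 in B6-ob/ob islets. The 2 tandem ends of the last exon of the shorter Nrp2 form differed by at most 0.030, and the tandem start of 576 nt had a PSI of 0.676 in NZO islets, compared with 0.761 in B6-ob/ob islets.

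Nrp1, its relative and the co-receptor of Kdr for VEGF-A, had no segment past the limit. Its 15 core exons had PSI values of 0.977 to 0.995 in NZO islets against 0.985 to 0.993 in B6-ob/ob islets, and the largest difference was 0.0082. The mean normalized count was 1542 for Nrp1 and 278 for Nrp2, over transcripts of 3645 and 6723 nt.

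The VEGF receptors had no segment past the limit. All 28 core exons of Kdr had PSI values of 0.992 to 0.998 in NZO islets, compared with 0.994 to 0.997 in B6-ob/ob islets, and the 27 of Flt1 of 0.989 to 0.996 in NZO islets against 0.993 to 0.997 in B6-ob/ob islets. Receptor forms that end early and act as soluble traps arise in both genes when an intron is read into. The Flt1 alternative last exon of 160 nt in the table, which belongs to a transcript annotated as noncoding, had a PSI of 0.0146 in NZO islets, compared with 0.0122 in B6-ob/ob islets. The Kdr retained intron of 864 nt had a PSI of 0.0100 in NZO islets against 0.0082 in B6-ob/ob islets. This intron too belongs to a transcript not annotated as coding. Neither value therefore gives the share of a soluble receptor form, which stays unknown in both strains. In Flt4 the 28 core exons differed by at most 0.035.

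Tek differed past the limit at its end and Tie1 at its start, and neither did in a core exon. At the end of Tek, the segment of 257 nt had a PSI of 0.853 in NZO islets, compared with 0.573 in B6-ob/ob islets, and the last 37 nt a PSI of 0.147 in NZO islets against 0.427 in B6-ob/ob islets. Both lie in the 3′ untranslated region, and the PSI of the earlier position was higher in NZO islets. Whether Tek transcripts end at these positions, and whether the strains differ in this, was not tested. The 2 donor sites of Tek that differ by 3 nt had a PSI of 0.421 in NZO islets, compared with 0.464 in B6-ob/ob islets for the longer form. At the start of Tie1, the outermost segment of 268 nt had a PSI of 0.300 in NZO islets, compared with 0.171 in B6-ob/ob islets, and the next 38 nt a PSI of 0.678 in NZO islets, compared with 0.794 in B6-ob/ob islets. The Tie1 retained intron of 460 nt had low values of 0.0827 in NZO islets against 0.0419 in B6-ob/ob islets. In Ptprb the largest difference, 0.044, was at the alternative first exon.

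Robo4 and Adgrf5 held the other splice site segments of the coding sequence past the limit. The 21 nt acceptor segment of Robo4 was in 0.281 of transcripts in NZO islets, compared with 0.549 in B6-ob/ob islets, a difference of -0.27. It adds 7 residues to the protein. The 54 nt donor segment of Adgrf5, which adds 18 residues, was in 0.763 of transcripts in NZO islets against 0.449 in B6-ob/ob islets, a difference of 0.31 in the opposite direction. Of the 6 acceptor segments in these genes 1 was past the limit (16.7%, against 14.9% of all acceptor segments), and of the 7 donor segments 2 (28.6%, against 15.4% of all donor segments). With 6 and 7 segments these shares are coarse. A further exon of Adgrf5, of 120 nt, had a PSI of 0.544 in NZO islets, compared with 0.604 in B6-ob/ob islets.

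The last exon of Robo4 also differed. Its tandem end of 2 nt had a PSI of 0.635 in NZO islets, compared with 0.135 in B6-ob/ob islets, and the segment of 423 nt just before it a PSI of 0.0055 in NZO islets, compared with 0.334 in B6-ob/ob islets. The 2 end positions are thus only 2 nt apart. The end 37 nt long and further upstream had a PSI of 0.360 in NZO islets against 0.398 in B6-ob/ob islets. The second 2 nt segment, next to the first, had a PSI of 0.0069 in NZO islets, compared with 0.111 in B6-ob/ob islets.

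Vwf had the largest difference of the 32 genes, again at its end. The tandem end of 37 nt (chr6:125686636-125686672, plus strand) had a PSI of 0.934 in NZO islets against 0.226 in B6-ob/ob islets. The 285 nt before it had a PSI of 0.0689 in NZO islets, compared with 0.476 in B6-ob/ob islets, and the last 7 nt a PSI of 0.0661 in NZO islets against 0.352 in B6-ob/ob islets. By these values 1 end held nearly all of the share in NZO islets, whereas all 3 held a part in B6-ob/ob islets. Whether Vwf transcripts end at these positions, and whether the strains differ in this, was not tested. All 24 core exons of Vwf with values had a lower PSI in NZO islets. Their medians were 0.899 in NZO islets, compared with 0.941 in B6-ob/ob islets, and the largest of these differences was 0.070. Vwf had a mean normalized count of 156 spread over a transcript of 8834 nt, a low level for its length.

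Small differences of 1 sign along a gene were common. Only core exons with values are counted here, and a gene can have others. Of the 391 core exons of the 32 genes, 279 had a lower PSI in NZO islets (71.4%), against 72.0% of all core exons. Of the 18 genes here with 10 or more core exons, 5 had all of them lower in NZO islets (27.8%, against 21.3% of all 4215 such genes), namely Vwf (24), Ptprb (31), Pecam1 (14), Hif1a (12) and Cdh5 (10). Of the 8 genes here with at least 20 core exons 2 were of this kind, against 16.8% of all 1155 such genes. In Tie1, by contrast, 18 of 21 core exons were higher in NZO islets, and in Nrp1 13 of 15.

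Among junction and surface genes, Pecam1 is known for exons of its cytoplasmic tail that are joined in several combinations. The 57 nt exon had a PSI of 0.506 in NZO islets against 0.599 in B6-ob/ob islets, a difference of -0.093 that stays below the limit. The exon of 54 nt had a PSI of 0.838 in NZO islets, compared with 0.864 in B6-ob/ob islets, and that of 23 nt 0.309 in NZO islets against 0.310 in B6-ob/ob islets. The 23 nt exon, whose length is not a multiple of 3, differed by 0.0012 in size. Eng kept its last intron, which changes the cytoplasmic end, at a low level of 0.0302 in NZO islets, compared with 0.0231 in B6-ob/ob islets. Its acceptor segment of 3 nt had a PSI of 0.778 in NZO islets against 0.760 in B6-ob/ob islets. In Adgrl4 an exon of 150 nt (chr3:151497827-151497976, plus strand) had a PSI of 0.496 in NZO islets, compared with 0.447 in B6-ob/ob islets. No segment differed past the limit in Cdh5, Esam, Emcn, Plvap, Podxl, Egfl7, Esm1 or Nos3, and the 4 core exons of Plvap differed by at most 0.00053.

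**Figure D3:**
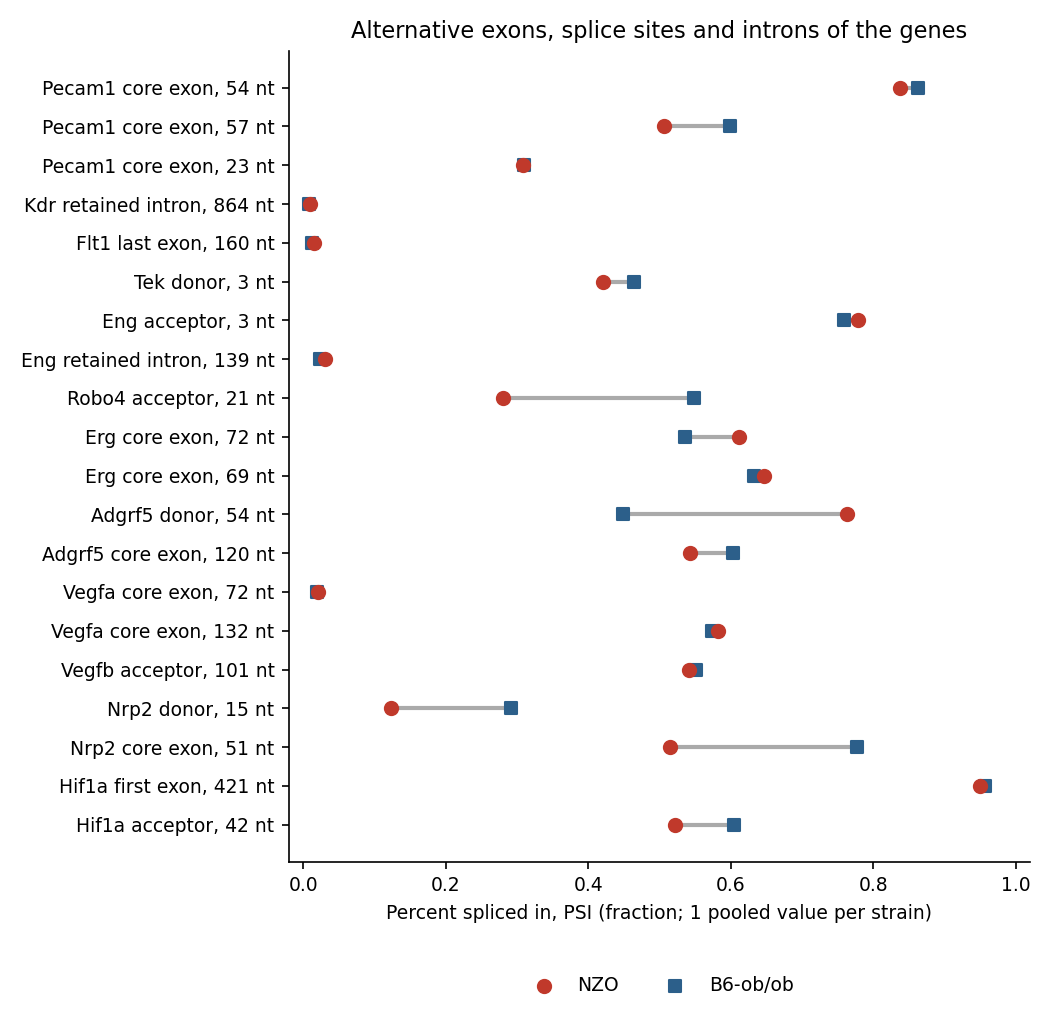
PSI (horizontal axis, fraction of transcripts) in NZO islets (red circles) and B6-ob/ob islets (blue squares) for 20 alternative exons, splice sites and introns of the endothelial and angiogenic genes. Each point is 1 pooled value per strain without an error. The points of Vegfa exons 6 and 7, the Vegfb acceptor and the Flt1 and Kdr segments nearly coincide, whereas those of Robo4, Adgrf5 and Nrp2 lie apart.

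Among the transcription factors, Erg has 2 coding exons that were left out of many transcripts. The 72 nt exon had a PSI of 0.612 in NZO islets, compared with 0.536 in B6-ob/ob islets, and the 69 nt exon (chr16:95369995-95370063, minus strand) 0.647 in NZO islets, compared with 0.633 in B6-ob/ob islets. Past the limit was only a tandem end of Erg, of 132 nt, whose PSI was 0.277 in NZO islets against 0.418 in B6-ob/ob islets. Sox17 differed at 2 tandem ends, with 0.246 in NZO islets, compared with 0.0732 in B6-ob/ob islets at the segment of 8 nt, and 0.388 in NZO islets against 0.501 in B6-ob/ob islets at that of 323 nt. Its mean normalized count was 89.2. Hif1a had no segment past the limit. Its 42 nt acceptor segment had a PSI of 0.521 in NZO islets, compared with 0.605 in B6-ob/ob islets, a difference of -0.083, and its alternative first exon 0.950 in NZO islets against 0.957 in B6-ob/ob islets.

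The kind of segment and the level of the gene went with the size of the differences. Of the tandem starts of the 32 genes 9.09% were past the limit, against 23.3% of all tandem starts, and of the tandem ends 23.4%, against 29.4% of all. Over core exons, retained introns, acceptors and donors together, 4 of 413 (0.969%) were past the limit, against 2.54% of all such segments. In genes with mean normalized counts from 1000 upwards, 5 of 302 segments (1.66%) were past the limit, against 6.16% in all genes of that level. For counts of 100 to 1000 it was 12 of 192 (6.25%), against 10.2%, and below 100 it was 2 of 15 (13.3%), against 14.3%. In the ranges from 100 upwards the endothelial and angiogenic genes had the lower share. Below 100 the shares were close, and both segments past the limit were in Sox17. The median absolute difference there was 0.0491, against 0.0277 in all genes of that level. Segments of 1 gene are not independent of each other.

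**Figure D4:**
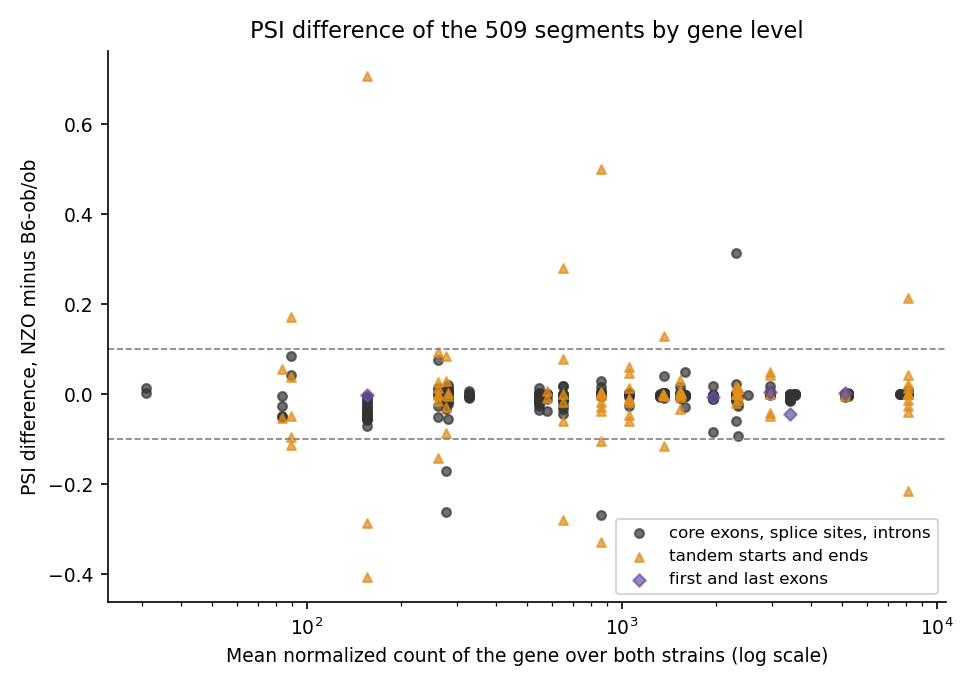
PSI difference (vertical axis, NZO minus B6-ob/ob) of the 509 segments against the mean normalized count of their gene (horizontal log axis). Each point is 1 segment, with its kind given by colour and shape, and the dashed lines mark the limit of 0.1 either way. Most points lie near 0, and those past the lines are mostly tandem starts and ends.

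**Figure D5:**
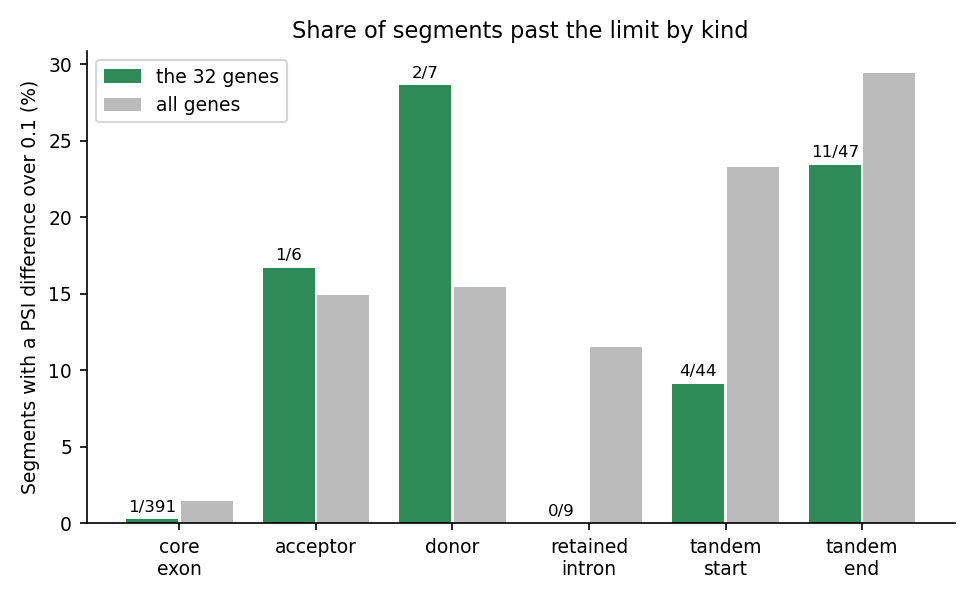
Share of segments past the limit of 0.1 (vertical axis, percent) by kind of segment, for the 32 endothelial and angiogenic genes (green, with the number past the limit over all segments) and for all genes (grey). Only 1 of 391 core exons was past the limit, whereas 11 of 47 tandem ends were.

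A further 75 genes of the same pathways were described by counts. Of these, 60 had splicing events, and 47 of their 774 segments (6.07%) in 21 genes were past the limit, 24 higher and 23 lower in NZO islets, against 8.73% of all segments. At least 1 such segment was held by 21 of the 60 genes with events, to be read against 44.0% of all genes with a segment. The list of other receptors and co-receptors also holds the Notch ligands Dll4 and Jag1. Of its 13 genes with events, 7 had a segment past the limit, with 17 of 266 segments (6.39%). These 7 genes include Notch4, a receptor of the Notch family found mainly on endothelium, and Acvrl1, a BMP receptor that binds with Eng. Of the transcription factors, 3 of the 11 with events had one (6 of 111 segments, 5.41%). Epas1, the hypoxia factor subunit that prevails in endothelium, had the highest count of this list (3557) and no segment past the limit, and Arnt, the partner of Hif1a, had 1. Of the regulators and targets of the hypoxia factors, 3 of the 9 with events had one, against 44.0% of all genes with a segment. Past the limit were 9 of 54 segments (16.7%), against 8.73% of all segments. These lay in only 3 genes, with 5 in Pdk1, 2 in Hif3a and 2 in Slc2a1. Of the surface and junction genes it was 4 of 15 (7 of 193 segments, 3.63%), of the ligands 3 of 8 (7 of 81 segments, 8.64%), and of the inhibitors of vessel growth 1 of 4 (1 of 69 segments, 1.45%). Adm, a ligand that is also a hypoxia target, is counted in both lists.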

How the data were processed

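Islet RNA of 5 NZO and 5 B6-ob/ob mice was read in pairs on an Illumina instrument. Salmon, DESeq2 and the mm10 build appear in the submitters' processing notes, and Whippet for splicing in the methods of the study. Their versions are not given in the sources used here. For each gene the authors deposited a signal, the mean over all libraries of the count normalized by DESeq2. For each splicing event they deposited 2 PSI values, 1 per strain and pooled over mice, each a fraction from 0 to 1 as made by the authors. The authors' fold changes, adjusted p-values, ∆PSI values and probabilities, and the sheets selected on them, hold their own comparisons and were not used. As there are no values per mouse, no test was possible.

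PSI differences were computed from the pooled values. Transcript lengths, coding positions and sequences came from GENCODE M21 (GRCm38, the same build), in which all 32 genes were matched. Counts are per kb of the longest transcript. Both strains were quantified on the mm10 annotation, which derives from C57BL/6J, and the effect of NZO variants on mapping was not tested. Whether counting used strand is not given in the sources used here, so that reads of antisense pairs such as Nos3 and Atg9b may be mixed.

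The genes, lists and limits were chosen with earlier results of these data known. The text names all 32 genes by level, every segment past 0.1 in a gene with a mean count of at least 100 (up to 20, and 4 per gene), and alternative segments of named genes with known forms. Sox17, with a lower count, and the Adgrl4 exon, the Tie1 retained intron and the segments given to set others in context were added after their values were seen. The counting step was run on simulated PSI values with known shifts and without read sampling or linked segments. That run checks the arithmetic of the counting alone. The work used Python 3.11.15, numpy 2.4.6, pandas 2.3.3 and matplotlib 3.10.9.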

Additional observations from a re-analysis of the deposited data

How the results depend on the processing

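Segments of the 32 genes past the limit numbered 19 of 509 with the limit of 0.1. They were 45 with a limit of 0.05, 12 with 0.2, 4 over core exons, introns, acceptors and donors alone, and 5 in genes with mean normalized counts from 1000 upwards. The genes with such a segment numbered 9, against 14 with a limit of 0.05, 3 over those 4 kinds and 3 at counts of at least 1000. Over all genes 14650 segments were past the limit, against 27556 with 0.05, 6127 with 0.2, 3098 over those 4 kinds and 5202 at counts of at least 1000. The share of segments past the limit in the 32 genes was below that of the whole table under each of these settings. The median absolute difference was 0.00359, and 0.0494 over the 67 segments with a mean PSI of 0.1 to 0.9, where 18 were past the limit (26.9%, against 38.8% of all). The summed level of the 24 endothelial genes was 13294 counts per kb of the longest transcript, 11297 per kb of merged exons and 26672 per kb of coding length. Per kb of coding length Vegfa stood above Plvap, Angpt2 above Tek and Angpt1 above Vwf and Cldn5. The other settings (counts of at least 100, repeated segments left out) moved no count by more than 1.5 times.

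No paired analysis was possible because the tables used hold no values per mouse and the strains share no replicate number, and leaving out single mice could not be run for the same reason. The depth behind each PSI is unknown.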
